A study of Mus musculus with 5 samples.

Results

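Signals of the enzymes of glycolysis and of the tricarboxylic acid (TCA) cycle were examined in pharyngeal arch tissue of wild-type mouse embryos. The set was a list of 37 genes for 2 glucose transporters, the glycolytic enzymes, lactate dehydrogenase, the pyruvate dehydrogenase complex with 1 of its kinases, and the enzymes of the TCA cycle. Of these, 35 genes had at least 1 probe set (a group of short probes that together read 1 transcript) annotated with that gene alone, among 12394 such genes on the array. They held 72 of 20393 probe sets. Gpi1 and Eno1 were not analysed here. All 5 samples formed 1 group: dissected wild-type tissue at E10.5 that held the arches and the second heart field, from embryos of 129P2/OlaHsd origin after 2 generations of crossing back to C57BL/6. Each sample was a separate tissue isolate, and 10 ng of its RNA was amplified and hybridised to 1 Affymetrix Mouse Genome 430A array. Whether these isolates were of separate litters is not in the labels, so p-values measure only the spread between these 5 samples, which may be partly technical. With no second group, the design allows 2 questions: which of these genes gave a signal above background, and how far the 5 samples differed.

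Glycolysis splits glucose in the cytosol into pyruvate, with a small yield of ATP, and lactate dehydrogenase turns pyruvate into lactate when the resulting NADH is to be reoxidised there. The pyruvate dehydrogenase complex instead carries pyruvate into the mitochondrial TCA cycle as acetyl-CoA, where its carbon is oxidised and electrons pass on to the respiratory chain. Many steps are shared out among isozymes, enzymes of separate genes that catalyse the same reaction in different tissues. Embryonic tissue is known for high glycolytic flux, and several of the glycolytic genes are known targets of the hypoxia-inducible factor HIF1 and of Myc.

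On each array a level of background was taken from families not known in this tissue, such as olfactory and taste receptors, keratin-associated proteins and milk proteins. It was the 95th percentile of 235 such probe sets and lay at a signal of 16 to 23.7 on the 5 arrays. Of 12393 genes fitted, 6665 (53.8%) were above it (limma, one-sided, adjusted p below 0.05), and so were 10343 of 20380 probe sets (50.8%). The excess of a gene is its log2 signal minus this level, given with its SE, and signals are in scaled units with their SD over n = 5. Of the markers of the labelled tissue, 5 of 9 for the heart field (55.6%) were above background, among them Isl1 (1387 ± 223). For arch mesenchyme and crest it was 8 of 12 (66.7%), among them Prrx1 (1063 ± 216). The heart field markers Tbx1, Nkx2-5, Fgf8 and Fgf10 were not above background. Neuron markers (10 of 12, 83.3%) and erythroid markers (5 of 9, 55.6%) were also above background. The heart field and erythroid shares were near the 53.8% of all genes. In bulk tissue, fewer cells of a type and less RNA per cell cannot be told apart.

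Nearly all of the enzymes were detected. Of the 34 genes in the fit, 31 (91.2%) were above background, beside 53.8% of all genes, and their median excess was 4.57, beside 0.84 over all genes. By probe set it was 58 of 69 (84.1%), beside 50.8% of all. All 17 genes of the pyruvate dehydrogenase complex with its kinase, the TCA cycle and the isocitrate dehydrogenases were above background, and 14 of 17 of the transporter, glycolysis and lactate dehydrogenase genes were. The exceptions were Hk1, Aldoc and Eno2. Gapdh, read here only by control probe sets that stay out of the fit, was above background when these were kept. Probe sets differ in how well they bind, so the signal of 1 gene is not a measure against that of another.

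**Figure D1:**
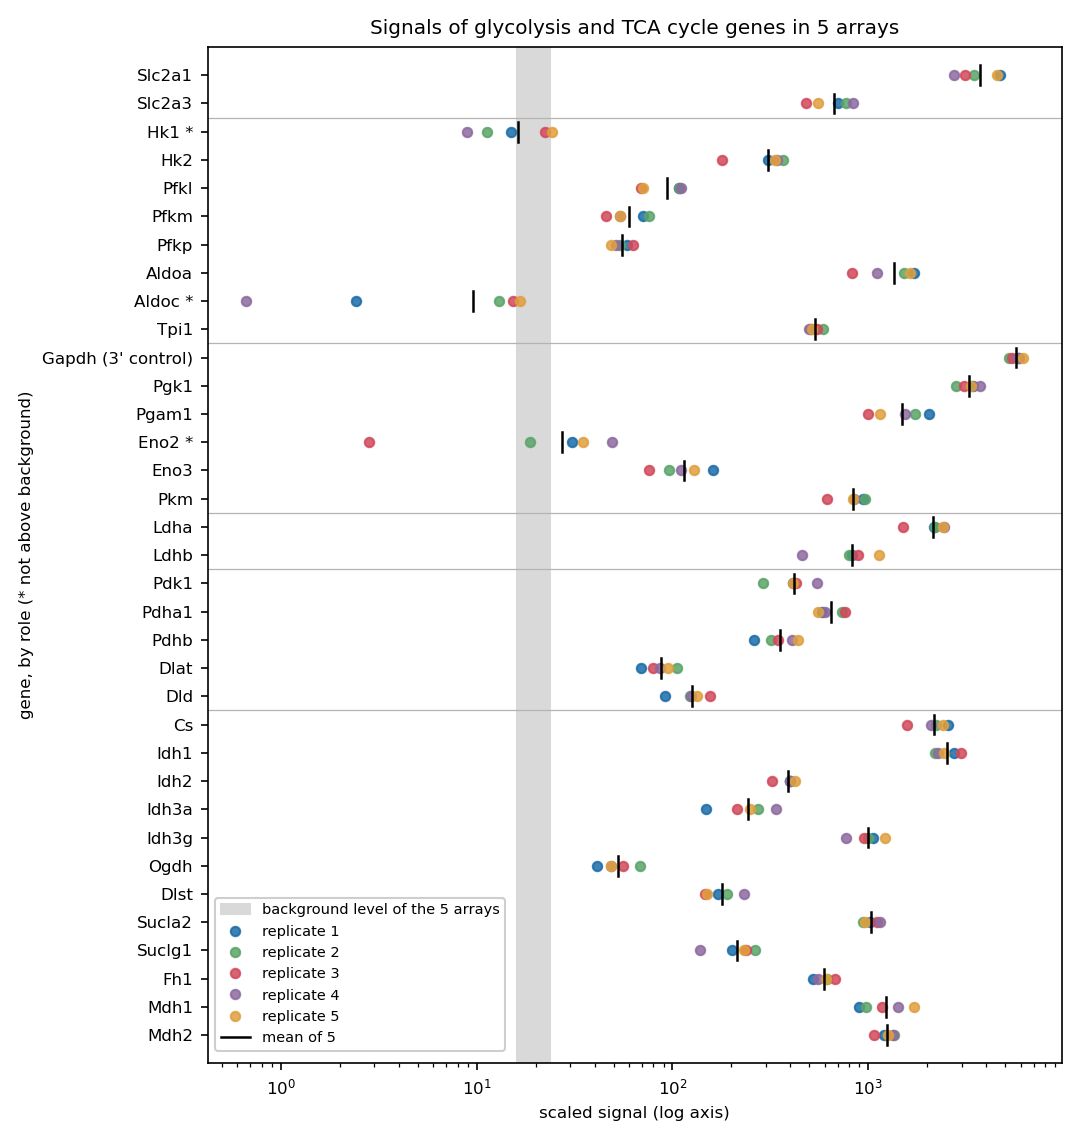
Scaled signal (log axis) of 35 genes in each of the 5 replicates, 1 probe set per gene, grouped by role, with the mean of the 5 as a black bar and the range of the background level (16 to 23.7) as a grey band. Only Hk1, Aldoc and Eno2, marked with a star, were not above background, and the means of all 32 others lie to the right of the band. The mean of Eno2 (27.2) also lies to the right, but the calls used log2 signals.

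Glucose enters through facilitative transporters. Slc2a1, which encodes GLUT1, the transporter of most embryonic tissues and of red cells, gave 4708, 3452, 3103, 2742 and 4542 in replicates 1 to 5. Its mean excess was 7.53 ± 0.14 (adjusted p = 1.05e-22, limma), and all 3 of its probe sets were above background. Slc2a3, for the high-affinity transporter GLUT3 of neurons and trophoblast, gave 704, 771, 483, 835 and 553, with an excess of 5.07 ± 0.17. That signal came from probe sets with the suffixes _x_at and _s_at, which may bind transcripts of other genes. The other 2 probe sets of Slc2a3 were not above background, with 1.39 to 13.8 and 2.32 to 18.9, so the gene was called only through the less specific ones.

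Hexokinases trap glucose by phosphorylation. Hk2, the inducible isozyme of muscle and of growing cells, gave 306, 366, 178, 342 and 336 in replicates 1 to 5, an excess of 3.92 ± 0.18 (adjusted p = 1.08e-15, limma). All 5 samples lay far above the level, with replicate 3 apart from the rest. Hk1, the isozyme of brain and red cells, gave 14.9, 11.3, 22.2, 8.98 and 24.2 on its brighter probe set and was not above background (excess -0.36 ± 0.34, adjusted p = 1, limma). Its values in replicates 3 and 5 were just above the level of those arrays and the others were below it. The second Hk1 probe set read 0.82 to 14. A probe set with no signal can also be one that binds poorly, so these values do not show that the transcript was missing.

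Phosphofructokinase commits sugar to glycolysis and has a liver, a muscle and a platelet subunit. All 3 subunit genes were above background. Pfkl (liver) gave 108, 108, 69.1, 110.4 and 70.9, an excess of 2.22 ± 0.20. Pfkm (muscle) gave 70.4, 76.3, 45.5, 53.9 and 53.7 (1.59 ± 0.21), and Pfkp (platelet) 58.9, 54, 62.8, 51.5 and 48.6 (1.49 ± 0.20). Each of the 3 calls rests on 1 probe set. A second probe set of Pfkl (14.7 to 49.8) and of Pfkp (0.743 to 5.98) was not above background, and with the mean of both its probe sets Pfkp lay below the level (-1.06).

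Aldolase splits the sugar into triose phosphates. Aldoa, the muscle and general isozyme, gave 1709.7, 1522, 824, 1108 and 1623 on 1 probe set (excess 6.06 ± 0.17, adjusted p = 8.19e-20, limma), and all 4 of its probe sets were above background. All 4 carry the suffix _x_at, so some of their probes may bind other transcripts. Aldoc, the brain isozyme, gave 2.43, 13, 15.4, 0.668 and 16.7, and 0.658 to 0.95 on the other probe set, and neither was above background (adjusted p = 1 for the gene, limma). Tpi1, for triosephosphate isomerase, gave 512, 587, 549.9, 498 and 515, the steadiest signal of the 34 genes, with a highest value 1.18 times the lowest. Its excess was 4.76 ± 0.16, and its other 2 probe sets were also above background.

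The later steps of the pathway earn the ATP. Gapdh, for glyceraldehyde-3-phosphate dehydrogenase, was read by 3 control probe sets laid along its transcript. The one at the 3′ end gave 5904, 5225, 5404, 5813 and 6171, the middle one 3069, 3205, 2933, 4407 and 3865 and the one at the 5′ end 1584, 1881, 1735, 2010.4 and 2135. The ratio of 3′ to 5′ signal, a usual gauge of RNA integrity and of the reach of the amplification, was 3.73, 2.78, 3.12, 2.89 and 2.89. Replicate 1 had the highest of these ratios, and replicate 3 lay within the range of the others. Other controls ranked the arrays differently. The same ratio was 4.34, 3.36, 4.58, 4.82 and 4.69 for Actb, highest in replicate 4. For Tfrc it was 2.82, 4.01, 3.06, 3.01 and 2.82, highest in replicate 2. The part of RNA quality in the differences between samples was not tested. Further Gapdh probe sets are shared with pseudogenes in the annotation and were not used. Pgk1, for phosphoglycerate kinase, a gene on the X chromosome, gave 3422, 2805, 3063, 3722 and 3329.6 (excess 7.38 ± 0.12, adjusted p = 8.13e-24, limma). Pgam1, for phosphoglycerate mutase, gave 2051, 1730.2, 991, 1533 and 1150.2 (excess 6.20 ± 0.18). Highest in replicate 1 and lowest in replicate 3, it spanned 2.07-fold.

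Enolase has a general, a neuronal and a muscle gene, and the general one, Eno1, was not analysed here. Eno3, the muscle isozyme, gave 160.2, 95.5, 75.7, 110.0 and 129 and was above background in all 5 samples (excess 2.50 ± 0.19, adjusted p = 1.78e-11, limma). Markers of skeletal muscle were above background in 4 of 9 cases (44.4%), among them the myosin light chain gene Mylpf (125 ± 11.4). Those of cardiac muscle were in 5 of 10 (50%), among them the actin gene Actc1 (156 ± 24.1). Neither share exceeded the 53.8% of all genes. Muscle creatine kinase, Ckm (0.788 to 23.7), and the cardiac myosin heavy chain gene Myh6 (0.263 to 6.83) were not above background. The summed signal of the cardiac list ran from 443 to 612 and that of the skeletal list from 327 to 376, and the part of muscle cells in the Eno3 signal was not tested. Eno2, the neuronal isozyme, gave 30.7, 18.7, 2.82, 49 and 35, with a mean excess of -0.01 ± 0.44 (adjusted p = 0.853, limma). It stood above the level in replicates 1, 2, 4 and 5 and well below it in replicate 3. Without replicate 3 it was above background, with an excess of 0.68 (adjusted p = 0.0145, limma). The summed signal of the neuron markers was 6078, 5501, 7455, 3933 and 6393, highest in replicate 3, where Eno2 was lowest. The part of neurons in the Eno2 signal was not tested. Pkm, for the pyruvate kinase whose M2 splice form is known from embryonic and tumour tissue, gave 942, 957, 611, 848 and 837 (excess 5.40 ± 0.16). Its 1 probe set was not resolved here into the M1 and M2 forms.

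Lactate dehydrogenase is a tetramer of an A subunit, favoured in glycolytic tissue, and a B subunit, favoured in oxidative tissue such as heart. Ldha gave 2172, 2179.5, 1500.5, 2422 and 2410.4, an excess of 6.75 ± 0.14 (adjusted p = 3.1e-22, limma). Replicate 3 stood below the 2172 to 2422 of the other samples. Ldhb gave 829, 799, 889, 457 and 1134 (excess 5.33 ± 0.18). Replicate 4 was lowest and replicate 5 highest for Ldhb, a 2.48-fold range, so the subunit genes did not have the same low sample.

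The pyruvate dehydrogenase complex has 3 catalytic parts. Pdha1 and Pdhb encode the E1 subunits, Dlat the E2 acetyltransferase and Dld the E3 dehydrogenase that other complexes share. Pdha1 gave 581, 731, 762, 603 and 556 (excess 5.03 ± 0.16, adjusted p = 1.27e-18, limma) and Pdhb 259.6, 317, 348, 409 and 438 (excess 4.15 ± 0.15). Dlat gave 69, 106, 79.9, 86.5 and 94.7 (2.14 ± 0.19), and Dld 91.3, 124, 156, 124 and 133 (2.66 ± 0.18). On these probe sets replicate 1 was lowest for Pdhb, Dlat and Dld. The other Pdhb probe set was lowest in replicate 2 (30.3, beside 40.4 in replicate 1). The other Dlat probe sets were lowest in replicate 4 (39.5) and in replicate 2 (29.0). Pdk1, the kinase that switches the complex off and a known HIF1 target, gave 411, 289.8, 427, 549 and 412 (excess 4.39 ± 0.16), lowest in replicate 2 and highest in replicate 4. Its second probe set gave 79.3, 69.4, 56.5, 56.0 and 62.6, lowest in replicate 4 and highest in replicate 1, so the 2 did not agree. All 10 probe sets of these 5 genes were above background.

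Every one of the 12 genes of the TCA list was above background. Citrate synthase, Cs, opens the cycle and gave 2565, 2208, 1566, 2091 and 2409.9 (excess 6.77 ± 0.14), highest in replicate 1 and lowest in replicate 3. Of the isocitrate dehydrogenases, Idh3a and Idh3g encode subunits of the NAD-linked enzyme of the cycle, Idh2 the mitochondrial NADP-linked enzyme and Idh1 its cytosolic counterpart. Idh1 gave 2746, 2186, 2958, 2264 and 2446 on a probe set with the suffix _s_at (excess 7.0 ± 0.13, adjusted p = 1.29e-22, limma). Idh2 gave 398, 398, 324, 396 and 425 (excess 4.30 ± 0.16), and Idh3a 148, 273, 215, 336 and 249.6 (excess 3.59 ± 0.17). Idh3g gave 1055, 993, 945, 768 and 1219.9 (excess 5.65 ± 0.15). Idh2 sat within 396 to 425 in replicates 1, 2, 4 and 5, and below them in replicate 3, whereas Idh1 was highest there. Idh3a was lowest in replicate 1 on this probe set and on another (105). On its last probe set replicate 2 was lowest, with 132 beside 144 in replicate 1.

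The oxoglutarate dehydrogenase complex is built like that of pyruvate, from Ogdh (E1), Dlst (E2) and Dld. Ogdh gave 41.1, 68.3, 55.7, 48.5 and 48.5, with an excess of 1.40 ± 0.21 (adjusted p = 9.9e-07, limma). It was the member closest to the level among those called, and against a level 1 log2 unit higher it did not pass (adjusted p = 0.0739, limma). Dlst gave 171, 189.6, 147, 232 and 150.3 (3.17 ± 0.18), while its second probe set (9.36 to 20.05) was not above background. Succinyl-CoA ligase, the step that makes a nucleotide triphosphate directly, was represented by Sucla2, the ATP-forming beta subunit (1025, 938, 1103, 1145 and 963), and Suclg1, the shared alpha subunit (201, 263, 239, 138 and 232). Sucla2 varied little, with a range of 1.22-fold, and Suclg1 was lowest in replicate 4.

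Fumarase and malate dehydrogenase close the cycle. Fh1 gave 524, 616, 679.6, 553 and 609 (excess 4.92 ± 0.15). Mdh2, the mitochondrial malate dehydrogenase, gave 1206, 1353, 1068, 1331 and 1261 (excess 5.98 ± 0.14). Mdh1, the cytosolic enzyme of the malate-aspartate shuttle, gave 901, 970.3, 1168, 1421 and 1704 (excess 5.94 ± 0.14), lowest in replicate 1 and highest in replicate 5. Its other 2 probe sets above background were instead highest in replicate 1, with 1325, 1095, 1017, 1154 and 1286 on one and 786, 743, 654, 523 and 716 on the other, so they did not agree on the low sample. The last of its 4 probe sets read only 0.934 to 9.28 and was not above background.

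Related genes outside the list were counted in the same fit, in which 53.8% of all genes were above background. Of 10 measured isozymes restricted to adult tissues or testis, 2 (20%) were above background, Pdk4 (68.7 ± 8.0) and Slc2a4, the insulin-dependent transporter GLUT4 (47.3 ± 10.4). The other 8 were not, and lowest among them were Pdha2 and Pgk2 of testis, Pgam2 of muscle and Hkdc1, whose signals stayed at or below 13.9. All 7 further TCA subunits were above background, among them the succinate dehydrogenase subunits Sdha (644 ± 65.2) and Sdhb (354 ± 38.1), Idh3b (439 ± 80.2) and Sdhd (273 ± 67.6). Of 7 genes of gluconeogenesis, the reverse route of liver and kidney, 1 was called, Pck2 (99 ± 9.2). The lowest of the other 6, Pck1, G6pc1, G6pc3 and Fbp1, stayed at or below 18.3. Lactate transport gave 4 of 4, with Slc16a1, the transporter MCT1 (791 ± 158), among them. The pentose phosphate pathway gave 6 of 7, with Tkt, transketolase (1009 ± 254), and Pgd (511 ± 121). Regulators of glycolysis gave 3 of 4, among them Bpgm (598 ± 88.6), and regulators and carriers of pyruvate entry gave 2 of 3, Pdk3 (106 ± 23.6) and Mpc1 (64.1 ± 6.97). The shuttle, anaplerosis and citrate list gave 7 of 8, among them Acly, which makes cytosolic acetyl-CoA (2457 ± 352).

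The second question was how the 5 samples differed. The 31 members whose mean exceeded the level were tested for more spread than genes of like signal. An F test of the variance against limma's trend called 0 of them at adjusted p below 0.05, and 3 (9.68%) passed before adjustment. Those 3 were Aldoa, Ldhb and Pgam1, which had 2.08-fold, 2.48-fold and 2.07-fold ranges and adjusted p-values of 0.885 or above in this limma-based test. Their variances were 3.67, 3.65 and 3.49 times the trend. In simulated data the test recovered 70% of genes with the smaller excess of spread and 98% with the larger. The lack of calls therefore does not show that no member varied more than genes of like signal. Among all 7388 genes tested, 6 (0.0812%) varied after adjustment and 413 (5.59%) before it, so the share of all 31 members was near the background. The 3 were all among the 14 transporter, glycolysis and lactate dehydrogenase genes, with 0 among the 17 other members. That difference was not tested. Leaving out replicate 1, 2 or 4 gave 10, 14 or 3 such genes over all, with 0 members in each case. The median SD of the members was 0.28 log2 units, beside 0.31 over all genes.

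Within this spread many of the glycolytic genes had their low value in the same sample. Of the 14 transporter, glycolysis and lactate dehydrogenase genes above background, 9 had their lowest signal in replicate 3 (64.3%), beside 23.9% of all genes. The 9 were Slc2a3, Hk2, Pfkl, Pfkm, Aldoa, Pgam1, Eno3, Pkm and Ldha. The median deviation of the 14 from their own means was -0.42 log2 units in replicate 3, against 0.14, 0.17, 0.01 and 0.02 in replicates 1, 2, 4 and 5. Over all genes it was -0.02 in replicate 3. Hk2 (-0.73) and Aldoa (-0.67) lay farthest below their means there, followed by Pgam1 (-0.54), Eno3 (-0.54) and Ldha (-0.49). Not every gene was low there: Tpi1 (0.05), Pgk1 (-0.09), Pfkp (0.19) and Ldhb (0.17) were close to or above their means in replicate 3. Gapdh was mixed: its middle probe set was lowest in replicate 3 (2933), its 3′ one was lowest in replicate 2 (5225) and its 5′ one in replicate 1 (1584). These shared low values describe 5 arrays and were not tested as a group.

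**Figure D2:**
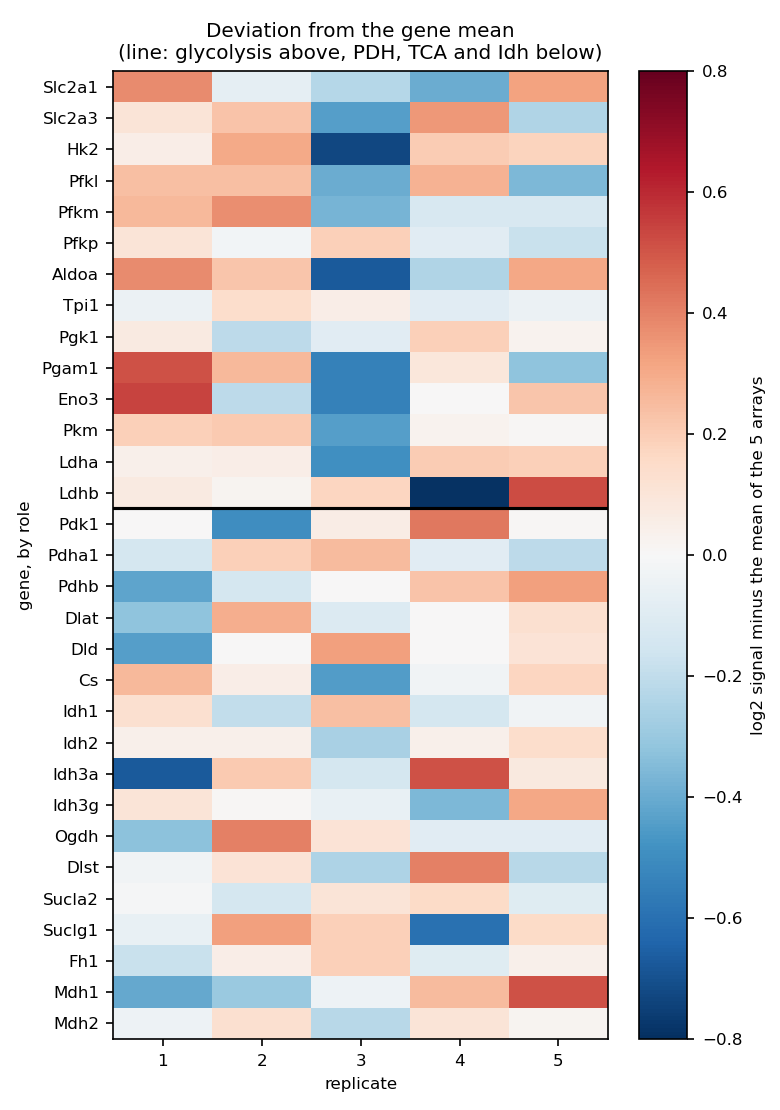
Deviation of each gene in each replicate from its own mean over the 5 arrays, in log2 units (blue below, red above), for the 31 genes above background, with the glycolytic genes above the line. The column of replicate 3 is blue for 11 of the 14 genes above the line, and mixed, with 9 of 17 below their mean, under it.

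The genes of the pyruvate dehydrogenase complex and the TCA cycle lay around their means in replicate 3, and the difference from the glycolytic genes was not tested. Their median deviation there was 0.00, with 4 of 17 lowest there (23.5%), and Cs (-0.45) was the one farthest below its mean. In replicate 1, where 7 of these 17 were lowest (41.2%, beside 21.0% of all genes), their median deviation was -0.06. Over the 31 probe sets of this group above background, 9 were lowest in replicate 1 (29.0%), beside 22.9% of all probe sets, so the share was near that background. Some other lists were also low in replicate 3, and likeness of pattern over the 5 samples was not tested. In replicate 1 the median deviation was 0.14 for the glycolytic genes. There it was 0.12 for the heart field markers (-0.12 in replicate 3) and -0.16 for the cardiac muscle markers. Of 8 arch mesenchyme and crest markers with a mean above the level, 5 (62.5%) were lowest in replicate 3, beside 23.9% of all genes. Their median deviation there was -0.38. In replicate 1 it was 0.52, and 7 of them (87.5%) were highest there, beside 21.1% of all genes. The other 4 markers of that list, Dlx5, Dlx6, Alx4 and Hand2, were not above background. Over all 12 the summed signal was 2906, 2136, 1977, 1917 and 2103. Of 7 cardiac muscle markers with a mean above the level, 4 were lowest in replicate 3 (57.1%), with a median deviation of -0.34, and the summed signal of that list was 481, 547, 443, 486 and 612. Hypoxia-responsive genes outside glycolysis, with 9 such genes, had a median deviation of -0.14 in replicate 3, and 1 of them was lowest there. Neuron markers had 0.40 and erythroid markers 0.24 in replicate 3. The part of tissue composition in the low glycolytic signals was not tested.

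**Figure D3:**
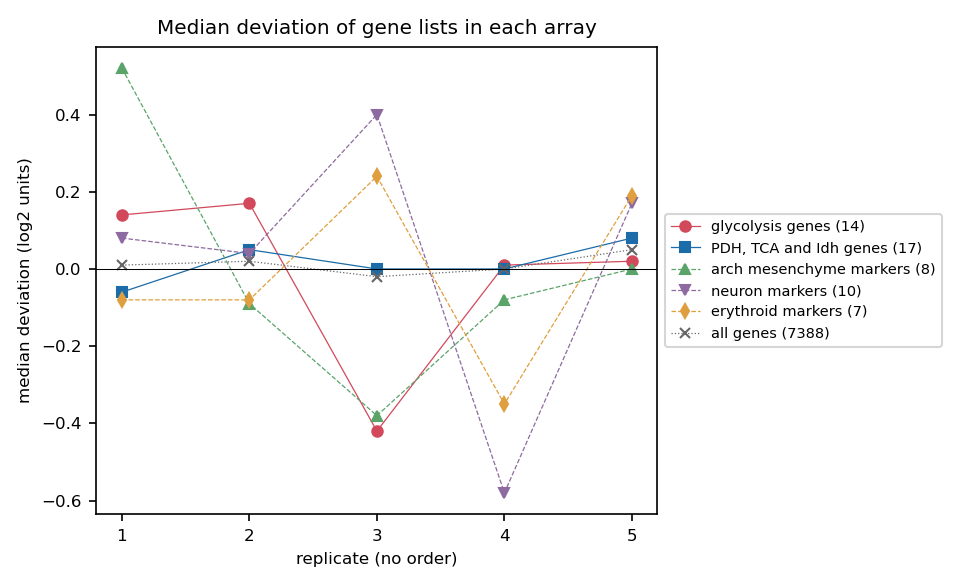
Median deviation from the gene mean, in log2 units, of 6 gene lists in each replicate, with the number of genes in brackets. Thin lines join the points of a list, and replicates have no order. In replicate 3 the glycolytic genes (-0.42) and the arch mesenchyme markers (-0.38) lie low while neuron markers (0.40) lie high, and the 17 genes of pyruvate dehydrogenase, its kinase, the TCA cycle and the isocitrate dehydrogenases together lie at 0.00.

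Several of these genes are known HIF1 targets, so their promoters were searched for ACGTG, the core letters of the hypoxia response element, on both strands, in the 250 bases before each RefSeq start (build GRCm38.p6). These letters overlap CACGTG, the E-box that Myc binds. Of 27025 genes with a promoter in the table, 18.5% held the letters in at least 1 window. Of the 9 genes lowest in replicate 3, 8 had a promoter and 6 held them (Hk2, Pfkm, Aldoa, Pgam1, Pkm and Ldha, but not Pfkl or Eno3). Of the other 5 glycolytic genes above background 2 held them (Slc2a1 and Pgk1, but not Pfkp, Tpi1 or Ldhb), and 4 of 16 genes of the pyruvate dehydrogenase and TCA groups did. Hk1, Aldoc, Eno2 and Gapdh, which are in none of these groups, did not hold them. Of all 35 listed genes with a promoter, 12 held them (34.3%). The group lowest in replicate 3 was picked from these same 5 arrays, and a link of the letters to that sample was not tested. These counts are descriptions, base composition was not matched, and a match is not a binding site. The 150 bases before the start are shown for 4 genes that were low in replicate 3 and held the letters, and for Pgk1 and Tpi1, which were not low. All are written 5′ to 3′ on the strand of the gene with the matched letters in capitals.
Hk2 (chr6:82774455-82774604, minus strand): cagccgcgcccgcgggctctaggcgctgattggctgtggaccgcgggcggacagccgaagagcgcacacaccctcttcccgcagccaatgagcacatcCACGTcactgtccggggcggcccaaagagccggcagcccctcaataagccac
Aldoa (chr7:126799255-126799404, minus strand): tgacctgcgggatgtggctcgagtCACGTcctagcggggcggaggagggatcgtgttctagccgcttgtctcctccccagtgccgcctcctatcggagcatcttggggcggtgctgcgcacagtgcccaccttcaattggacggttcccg
Pgam1 (chr19:41911721-41911870, plus strand): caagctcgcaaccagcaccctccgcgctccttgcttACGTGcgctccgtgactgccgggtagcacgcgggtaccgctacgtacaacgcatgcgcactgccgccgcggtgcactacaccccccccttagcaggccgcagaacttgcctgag
Ldha (chr7:46845654-46845803, plus strand): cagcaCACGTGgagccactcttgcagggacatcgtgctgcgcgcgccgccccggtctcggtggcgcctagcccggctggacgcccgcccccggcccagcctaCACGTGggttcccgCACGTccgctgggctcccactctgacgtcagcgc
Pgk1 (chrX:106186950-106187099, plus strand): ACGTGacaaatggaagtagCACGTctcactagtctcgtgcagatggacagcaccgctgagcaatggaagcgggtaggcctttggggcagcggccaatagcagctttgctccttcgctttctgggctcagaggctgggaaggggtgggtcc
Tpi1 (chr6:124814159-124814308, minus strand): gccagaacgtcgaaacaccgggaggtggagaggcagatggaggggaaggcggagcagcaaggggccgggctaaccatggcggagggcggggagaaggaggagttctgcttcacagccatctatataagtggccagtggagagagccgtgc
Ldha held 5 matches, 4 of them as pairs inside CACGTG, where both strands read the same letters. Pgk1 held 2 and Tpi1 held 0, and neither gene had its lowest signal in replicate 3.

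Probe sets of the same gene gave a limited check on single values. Of 16 members with 2 or more probe sets above background, 5 had the same lowest sample in all of them, namely Slc2a3, Aldoa, Tpi1, Ldhb and Mdh2. The like share over all genes was not computed, so this count is a description only. Such probe sets need not be independent readings: both of Slc2a3 above background came from the same source sequence. The 4 Aldoa probe sets were all lowest in replicate 3, with 902, 656, 763 and 824. All 4 Ldhb probe sets were lowest in replicate 4 (361, 457, 344 and 424) and highest in replicate 5 (703, 1134, 788 and 632). The same sample was low in 2 marker lists. Neuron markers were lowest in replicate 4 in 9 of 10 cases (median deviation -0.58) and erythroid markers in 5 of 7 (-0.35), beside 23.4% of all genes. Of these 7 erythroid markers, 4 (57.1%) were highest in replicate 5, beside 23.9% of all genes. The summed erythroid signal was 12819, 13136, 16317, 10509 and 19062, and its part in Ldhb was not tested. Over all 27 glycolytic probe sets above background, 14 (51.9%) were lowest in replicate 3, beside 21.9% of all probe sets. Their median deviation was -0.23, nearer 0 than the -0.42 of 1 probe set per gene.

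**Figure D4:**
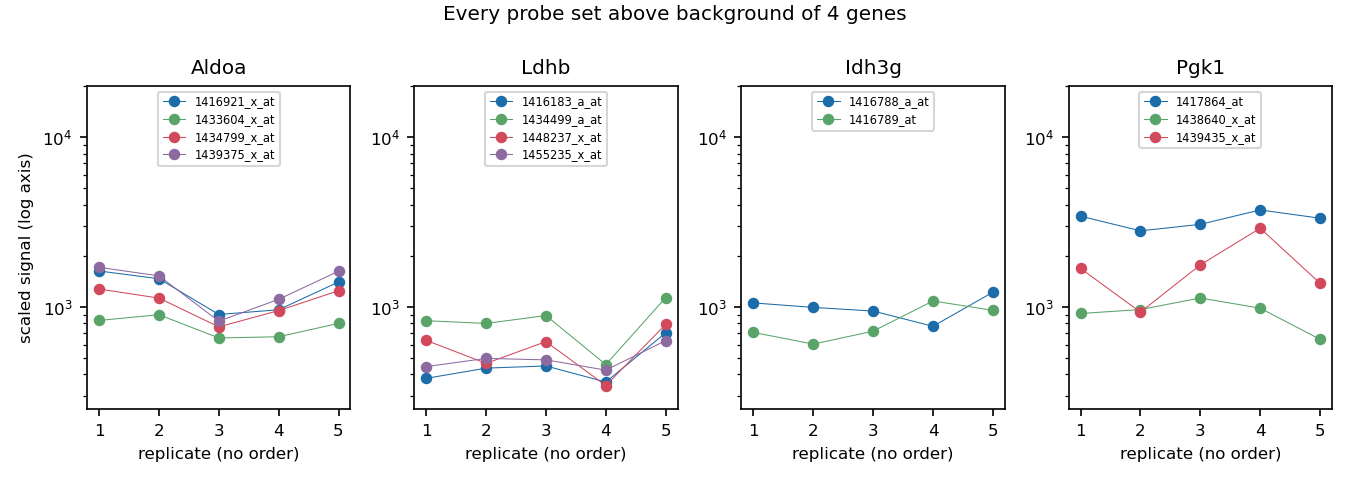
Scaled signal (log axis) of each probe set above background in the 5 replicates, for Aldoa, Ldhb, Idh3g and Pgk1. Thin lines join the values of 1 probe set, and replicates have no order. The 4 Aldoa probe sets share their low point in replicate 3 and the 4 Ldhb probe sets theirs in replicate 4, whereas those of Idh3g run opposite ways in replicate 4.

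Other genes had probe sets at odds. Slc2a1 had its lowest sample in replicate 4, 3 or 5 depending on the probe set, with one of the others at 1747, 1851, 1046, 2107 and 1425 and the last at 2377, 2289.9, 1795, 2365 and 1549. Cs was lowest in replicate 3 on its brightest probe set and in replicate 2 on another (185 to 248). On its last probe set (555 to 864) replicates 5 and 3 were nearly equal and lowest, at 555 and 557. Idh3g gave 1055, 993, 945, 768 and 1219.9 on one probe set, lowest in replicate 4, and 707, 604, 719, 1083 and 954 on the other, highest there. Dlat and Pgk1 differed most: the ratio between 2 probe sets of the same gene ranged 2.99-fold over the 5 arrays for Dlat and 3.06-fold for Pgk1. For these genes a single probe set does not settle which sample was high or low.

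Pgk1, Pdha1 and Idh3g lie on the X chromosome, and 1 sample differed from the rest in its sex-linked transcripts. Xist gave 9.57, 8.37, 1.28, 916 and 26.3 and the Y-linked Eif2s3y 769, 786, 968, 20.1 and 837 in replicates 1 to 5. Pgk1 was highest in replicate 4 on 2 of its 3 probe sets, with 3722 and 2905. Pdha1 gave 603 in replicate 4, within the 556 to 762 of the 5 samples, and its second probe set 75.5, within 46 to 80.8. With the opposite readings of Idh3g, the X-linked members had no common direction in replicate 4.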

How the data were processed

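The data were deposited intensity values, 1 linear signal per probe set and array. Per the submitters' processing notes the authors used GCOS, for which the version was not given in the sources used here. On every array the mean signal without the lowest and highest 2% of probe sets was 150.1, so the arrays had been scaled. Probe sets (22690, 64 of them controls) were named from the platform annotation, updated by Entrez identifier with RefSeq (20351 of 20380 with 1 gene). Each gene took the probe set of highest mean, and signals under 1 were set to 1 before log2. Detection was an intercept fit, one-sided, in limma 3.58.1 (R 4.3.3; eBayes with trend and robust) on log2 signal minus the background level, with Benjamini-Hochberg adjustment over all genes. Variability was an F test against limma's robust variance trend over the genes with a mean above the level. Both fits were tested on simulated data. The number of arrays limits the precision. Alternatives changed the gene value, level, floor, normalization, moderation, controls and samples. Named genes were all members, by role, and, in each related list, up to 4 called genes with the highest excess and up to 4 uncalled with the lowest. Marker genes and sex-linked genes were picked after their values were seen. The members and lists were chosen with earlier results of these data known.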

Additional observations from a re-analysis of the deposited data

Results flagged for a closer look

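Of 37 values tested, 2 had 1 sample far from the others, by Dixon's criterion at the 95% level, which chance meets in about 1 of 20 groups. Ldha stood at 1500.5 in replicate 3 and at 2172 to 2422 elsewhere. Idh2 stood at 324 in replicate 3 and at 396 to 425 elsewhere. Both genes were read by 1 probe set, so no second reading of the same gene was to hand.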

How the results depend on the processing

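Of 464 excess values of single members recomputed under 14 alternatives, 455 kept their direction and their side of the threshold, 1 (Ogdh, 0.40 above a level raised by 1 log2 unit) no longer passed, and 8 changed sign. Those were Slc2a3 with plain _at probe sets (-2.25), Pfkp with the mean of all probe sets (-1.06), Hk1 (1.98), Aldoc (0.64) and Eno2 (2.33) against the median of the background probe sets, and Eno2 with log2(signal + 16) (0.16), with quantile normalization (0.01) and without replicate 3 (0.68, the highest of -0.29 to 0.68 without each replicate in turn). Members above background numbered 30 to 33 of 34 in each alternative that fitted all 34, 32 of 35 with controls kept, and 20 of 22 with plain _at probe sets, where fewer genes are measured. Without each replicate in turn they numbered 31 to 32. Their median excess of 4.57 became 3.46 with the mean of all probe sets, 3.67 with plain probe sets, 3.91 against the 99th percentile, 6.91 against the median level and 3.76 with log2(signal + 16). The median deviation of the glycolytic genes in replicate 3 ran from -0.36 to -0.45 in the alternatives with 1 value per gene. Of these genes 9 or 10 were lowest there, but the number counted changed with the alternative. It was 9 of 13 with the mean of all probe sets, 10 of 17 with no filter on dim genes and 5 of 7 with plain probe sets. That count was added after the data were seen. For all members the deviation of -0.11 became -0.02 with plain probe sets. All genes variable between samples numbered 19 against the median level, 21 with no filter on dim genes, 0 with moderation without both trend and robust options (0 members in each case), and 3 to 14 without each replicate in turn. The count of members called variable was 0 in all of these. The cause of these changes was not tested. No paired analysis was possible because all samples form 1 group. Dim probe sets near the level have few units of signal above background, which limits Hk1, Eno2, Ogdh, Pfkm and Pfkp.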
